A study of Homo sapiens with 6 samples.

Results

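The insulin-like growth factor (IGF) receptors, their substrates and the secreted IGF binding proteins were examined in drug-tolerant persisters (DTPs) of the lung cancer line PC9. The members were fixed by name: the binding proteins IGFBP2, IGFBP3, IGFBP4, IGFBP5, IGFBP6 and IGFBP7, the receptors IGF1R and INSR, and the receptor substrates IRS1 and IRS2. All 10 genes were measured, out of 19775 genes on the array. They were read by 29 of the 54613 probe sets tested, counting those that the annotation assigned to exactly 1 gene.

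PC9 (PC-9 in the labels) is a non-small cell lung cancer line with a mutant, activated EGFR. All 6 samples carried a stably expressed GFP vector. DTPs (n = 3 arrays) were the cells that outlasted 9 days of the EGFR kinase inhibitor erlotinib at 2 µM and were harvested on day 10. Drug was added once the plates were 80% confluent. Parental cells (n = 3 arrays) received the vehicle DMSO and, by the protocol in the labels, were harvested on day 3 at 100% confluency, whereas the design text gives 9 days for both groups. Drug, time in culture and density thus cannot be told apart here if the protocol holds. As DTPs are survivors of a bulk population, changed expression in each cell cannot be told apart from the loss of other cells, nor fewer cells of a type from less RNA per cell. No label states that the arrays of a group came from separate cultures. The study's methods describe its replicates in general as biological and from independent experiments, without naming the arrays. The p-values thus reflect the spread among these arrays alone, and the labels do not tell whether that spread is technical. Values are log2 expression after robust multi-array averaging (RMA), in which 1 unit is a doubling.

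IGF1 and IGF2 signal through IGF1R, a receptor tyrosine kinase closely related to the insulin receptor INSR, and both receptors phosphorylate the docking proteins IRS1 and IRS2, which recruit PI3-kinase and so activate AKT. In the extracellular space the binding proteins hold IGFs and can keep them from the receptor or deliver them to it, and IGFBP3 and IGFBP5 also bind matrix and cell surfaces. AKT in turn keeps FOXO transcription factors out of the nucleus, and IGF1R, INSR and IRS2 are among the genes that FOXO factors can activate. Proteases such as pappalysin 1 cut binding proteins and free the IGF.

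The promoters of the members with the 2 largest rises, of a binding protein that was not called and of the substrate IRS2 are shown to give the sequence context of the genes compared. A promoter is 250 bases before to 50 bases after the start of the RefSeq transcript (build GRCh38.p14), written on the strand of the gene, and 9 of the 10 members had an entry, IGFBP7 being the exception. Capitals mark matches to short motifs, chosen after the promoters had been read. The TATA box TATAAA and its variants, the heptamer TATTTAA and the hexamer TATATA, were searched on the coding strand only. The binding sequence of FOXO factors, TGTTTAC, the insulin response element that FOXO factors also read, TGTTTTG, the site of TEAD factors, CATTCC, and the site of the AP-1 complex, TGACTCA, were searched on both strands. The IGFBP5 window is chr2:216695500-216695799 (minus strand), that of IGFBP3 chr7:45921223-45921522 (minus), that of IGFBP4 chr17:40443200-40443499 (plus) and that of IRS2 chr13:109786534-109786833 (minus).
IGFBP5: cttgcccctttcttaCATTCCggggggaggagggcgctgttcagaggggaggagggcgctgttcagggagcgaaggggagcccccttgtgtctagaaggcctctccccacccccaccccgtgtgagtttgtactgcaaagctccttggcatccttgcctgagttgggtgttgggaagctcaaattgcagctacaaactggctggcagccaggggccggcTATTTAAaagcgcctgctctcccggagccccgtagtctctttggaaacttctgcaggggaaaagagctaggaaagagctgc
IGFBP3: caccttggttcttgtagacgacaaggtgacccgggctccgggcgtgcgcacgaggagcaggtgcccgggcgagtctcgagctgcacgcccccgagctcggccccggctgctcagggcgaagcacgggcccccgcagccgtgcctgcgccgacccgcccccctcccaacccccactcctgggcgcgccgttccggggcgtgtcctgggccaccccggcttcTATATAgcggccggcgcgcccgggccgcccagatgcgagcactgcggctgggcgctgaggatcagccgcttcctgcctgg
IGFBP4: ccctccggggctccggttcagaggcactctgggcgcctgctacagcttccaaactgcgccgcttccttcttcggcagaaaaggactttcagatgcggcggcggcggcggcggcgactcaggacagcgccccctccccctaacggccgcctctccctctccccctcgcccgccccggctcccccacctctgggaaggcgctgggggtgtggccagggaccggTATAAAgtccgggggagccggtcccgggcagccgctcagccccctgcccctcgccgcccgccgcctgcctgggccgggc
IRS2: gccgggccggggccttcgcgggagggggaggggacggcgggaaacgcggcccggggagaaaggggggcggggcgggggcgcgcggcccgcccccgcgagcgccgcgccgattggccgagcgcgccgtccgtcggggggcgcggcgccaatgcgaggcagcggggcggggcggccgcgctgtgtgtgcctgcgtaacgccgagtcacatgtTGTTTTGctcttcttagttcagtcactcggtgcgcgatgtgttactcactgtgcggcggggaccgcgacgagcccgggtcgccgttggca

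IGFBP5 held TATTTAA 31 bases before the start, a heptamer found in 2.43% of the 35116 RefSeq promoters of the same length, and CATTCC 235 bases before it, a hexamer found in 14% of them. IGFBP3 held TATATA 30 bases before the start (3.99% of promoters) and IGFBP4 held TATAAA 29 bases before it (7.33%). The IGFBP5 promoter was 59% G and C, against 74.7% for IGFBP3, 74% for IGFBP4 and 75.7% for IRS2. IRS2 held TGTTTTG 40 bases before the start (4.92% of promoters). Of the promoters not printed, that of IGFBP6 held TGTTTAC (3.42% of promoters) 186 bases and CATTCC 101 bases before the start, and that of IRS1 held CATTCC 33 bases before it. None of the 7 motifs was found in the windows of IGFBP2 (the most upstream of its 3 annotated starts), IGF1R or INSR, and TGACTCA (4.95%) was found in none of the 9. A match describes the letters of the window and is no evidence of binding.

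A gene was called where DTPs and parental cells differed at an adjusted p under 0.05 and by a fold over 1.5 (limma over all 19775 genes, two-sided, Benjamini-Hochberg), each gene being read by its probe set with the highest mean. IGFBP5, IGFBP3 and IGF1R were called higher in DTPs, IGFBP2, IRS1 and IRS2 were called lower, and IGFBP4, IGFBP6, IGFBP7 and INSR were not called. Thus 6 of the 10 members were called, where 14.2% of all genes were, with 3 higher against a background of 8.08% and 3 lower against 6.13%. The median log2 fold change was -0.14 over the members and -0.05 over all genes, and the median size of the change, without its sign, was 0.75 over the members and 0.17 over all genes. An adjusted p under 0.05 was reached by 9 members and 44.5% of all genes. The arrays of the 2 groups did not overlap for 8 members, nor for 53.7% of all genes, a share that the count of 8 has to be read against. The share of 14.2% counts dim genes too. With probe sets of a mean below the median of all probe sets left out, 6 members were still called. Of the 12898 genes that remained, 1407 were called higher and 1124 lower, a larger share than over all genes. The members had been chosen with results of these data known.

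**Figure D1:**
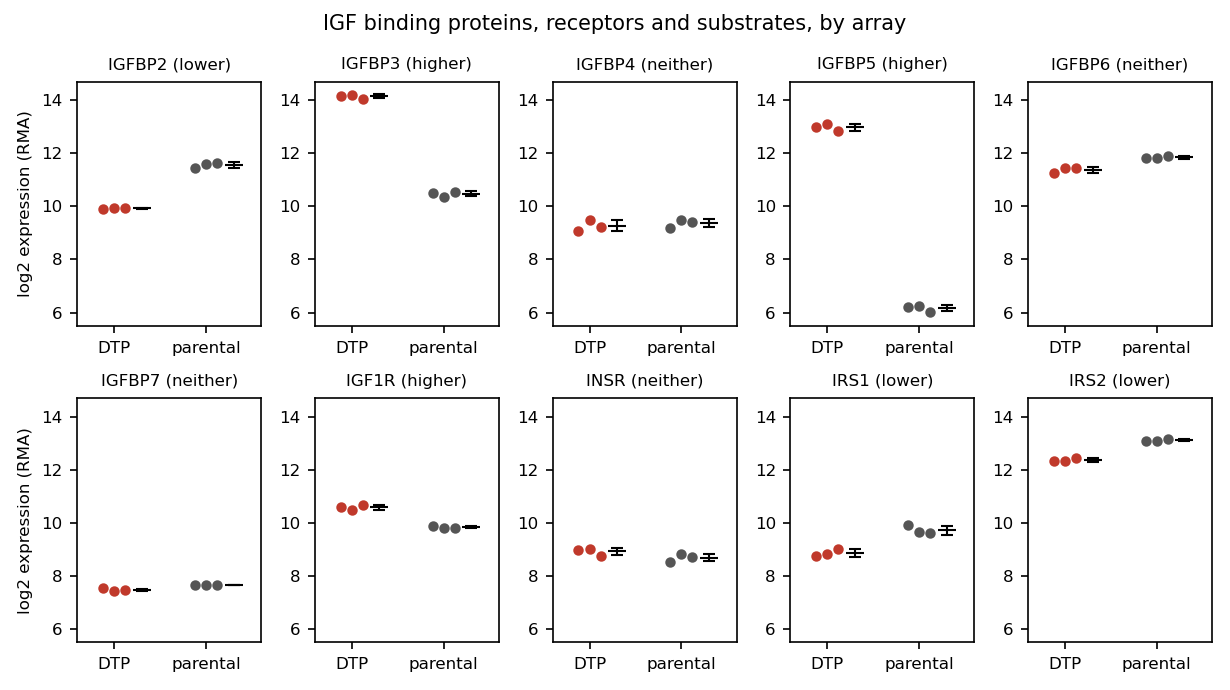
Log2 expression (RMA, y axis) of the 10 genes in the 3 DTP arrays (left, red points) and the 3 parental arrays (right, grey points), with the mean and SD of each group as bars and the call in each title. IGFBP5 and IGFBP3 stood far above parental cells in every DTP array, IGFBP2 stood below them, and the arrays of IGFBP4 and INSR overlapped.

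Among the binding proteins, IGFBP5, a matrix-binding member that can either restrain or aid IGF action, had the largest change. Its probe set 211959_at read 12.99, 13.11 and 12.84 in the DTP arrays, against 6.22, 6.26 and 6.03 in the parental arrays. The groups lay far apart, and all 3 parental values were below 7.29, the median of all probe sets. The log2 fold change was 6.81 ± 0.09 (SE, 95% interval 6.62 to 7.0), which is 112-fold (adjusted p = 8.3e-14, limma). By size of rise IGFBP5 ranked 2 of all 19775 genes. The values carry no detection call, so the parental level may be background, and the fold and rank depend on that floor. They also depend on the choice of probe set, as does the p-value. Probe set 211959_at was read for its highest mean over all 6 arrays, which its DTP values set. In parental cells it averaged 6.17, below the 7.08 of 211958_at, whose log2 fold change was 3.00.

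All 6 probe sets of IGFBP5 were called higher, and in none did the groups overlap, but the size of the rise differed among them. Probe set 1555997_s_at read 9.14, 9.29 and 8.64 in DTPs, against 5.68, 6.35 and 5.62 in parental cells (log2 fold change 3.14 ± 0.19, SE). Probe set 211958_at read 10.05, 10.34 and 9.84 in DTPs, against 7.09, 7.19 and 6.95 in parental cells (3.00 ± 0.12). Both thus showed a rise of less than 4 units on the log2 scale where 211959_at showed nearly 7. The remaining 3 probe sets had the smallest rises. Probe set 203424_s_at read 8.65, 8.28 and 8.07 in DTPs, against 6.28, 5.99 and 6.00 in parental cells (2.24 ± 0.13). Probe set 203425_s_at read 8.06, 8.12 and 7.74 in DTPs, against 6.56, 6.39 and 6.50 in parental cells (1.49 ± 0.10). Probe set 203426_s_at read 8.11, 8.47 and 7.92 in DTPs, against 6.82, 6.37 and 6.93 in parental cells (1.46 ± 0.15). DTP replicate 3 was the lowest DTP array in all 6 probe sets, and DTP replicate 2 the highest in 5.

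Whether the probe sets of a gene differ was tested with limma's diffSplice, which sets the log2 fold change of each probe set against that of the others of its gene, and again with limma on the difference within each array. The second was added because diffSplice made more false calls than its adjusted p allows on simulated data, so its p-values are too small. For IGFBP5, 211959_at exceeded the other probe sets by 4.55 on the log2 scale (adjusted p = 5.0e-19 by diffSplice and 6.1e-09 within arrays). Lower than the others were 203424_s_at by a difference of -0.94 (adjusted p = 2.1e-04 and 7.5e-04), 203425_s_at by -1.84 (1.9e-09 and 5.9e-07) and 203426_s_at by -1.88 (1.3e-09 and 4.1e-05, limma). The mean log2 fold change over the 6 probe sets was 3.02. The direction was thus shared by all probe sets, while the 112-fold rise was the value of only 1 of them.

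**Figure D2:**
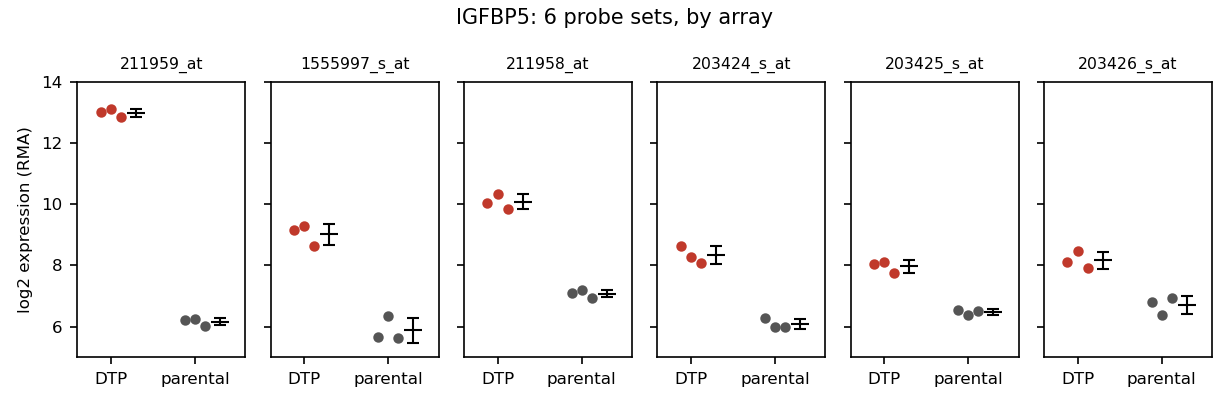
Log2 expression (RMA, y axis) of the 6 IGFBP5 probe sets, a panel each, in 3 DTP arrays (left, red) and 3 parental arrays (right, grey), with mean and SD as bars. DTPs were higher in every panel, by 6.81 on the log2 scale in 211959_at and by 1.46 to 3.14 in the others.

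IGFBP3, the main carrier of IGFs in blood and a secreted protein with effects of its own on growth, also rose. Probe set 210095_s_at read 14.14, 14.21 and 14.06 in DTPs, against 10.51, 10.36 and 10.53 in parental cells. Every DTP array was more than 3 log2 units above every parental array. It rose by 3.67 ± 0.07 on the log2 scale (SE, 95% interval 3.51 to 3.84), or 12.8-fold (adjusted p = 3.1e-12, limma). IGFBP3 ranked 28 of all 19775 genes by size of rise. The other probe set, 212143_s_at, read 13.50, 13.55 and 13.27 in DTPs, against 9.62, 9.75 and 9.72 in parental cells (3.74 ± 0.09). Neither test found a difference between these 2 probe sets.

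IGFBP2, a binding protein with a preference for IGF2 that many carcinomas secrete, fell. Its only probe set read 9.90, 9.92 and 9.94 in DTPs, against 11.43, 11.61 and 11.62 in parental cells. The 3 DTP arrays were nearly equal, and all lay below the lowest parental array. Its log2 fold change was -1.63 ± 0.07 (SE, 95% interval -1.79 to -1.47), 3.09-fold lower (adjusted p = 1.8e-09, limma). IGFBP2 ranked 140 of all 19775 genes by size of fall. In the RefSeq order of protein-coding genes (GRCh38.p14), IGFBP2 and IGFBP5 are next to each other on chromosome 2, so the member with the largest rise and the member with the largest fall were neighbours. On chromosome 7 IGFBP3 is the neighbour of IGFBP1, the liver binding protein controlled by insulin. IGFBP1 was called lower, with values of 6.88, 7.16 and 7.11 in DTPs, against 7.57, 7.67 and 7.70 in parental cells (log2 fold change -0.60 ± 0.08, adjusted p = 6.3e-05, limma). Only 1 of its 2 probe sets was called, and the call was lost with their mean (-0.40), without DTP replicate 1 (-0.52), without parental replicate 3 (-0.57) and with the arrays centred on ribosomal protein genes (-0.51) or spike-ins (-0.45).

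IGFBP4, IGFBP6 and IGFBP7 were not called. IGFBP4, which inhibits IGF action until it is cut by pappalysin 1, read 9.09, 9.49 and 9.21 in DTPs, against 9.19, 9.50 and 9.41 in parental cells. The groups overlapped, and the 95% interval of the log2 fold change (-0.10 ± 0.11, SE) was -0.33 to 0.13 (adjusted p = 0.46, limma). IGFBP6, which binds IGF2 far more tightly than IGF1, read 11.24, 11.44 and 11.45 in DTPs, against 11.82, 11.82 and 11.90 in parental cells. These groups did not overlap, but the log2 fold change of -0.47 ± 0.08 (SE, 95% interval -0.64 to -0.31), 1.39-fold lower, was under the fold minimum (adjusted p = 2.2e-04, limma).

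IGFBP7, a secreted protein that binds IGFs weakly, gave probe sets of opposite sign. Probe set 201162_at read 7.53, 7.44 and 7.48 in DTPs, against 7.65, 7.65 and 7.66 in parental cells (log2 fold change -0.17 ± 0.06, adjusted p = 0.047, limma over genes). Probe set 201163_s_at read 4.25, 4.38 and 4.20 in DTPs, against 3.82, 3.81 and 3.83 in parental cells (0.46 ± 0.07, adjusted p = 3.5e-04, limma over probe sets). Neither reached the fold minimum. Probe set 201162_at lay below the other probe sets of the gene by a difference of -0.41 (adjusted p = 0.0016 by diffSplice, 0.0021 within arrays) and 201163_s_at above them by 0.53 (1.1e-04 and 0.0018, limma). Both 201163_s_at and the remaining probe set, 213910_at (0.02 ± 0.09), stayed below the median of all probe sets in both groups. No direction is given for IGFBP7.

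Of the receptors, IGF1R was called higher and INSR was not. IGF1R, read by 225330_at, gave 10.61, 10.49 and 10.68 in DTPs, against 9.89, 9.82 and 9.80 in parental cells. The lowest DTP array exceeded the highest parental array by more than the range within either group. The log2 fold change was 0.75 ± 0.07 (SE, 95% interval 0.60 to 0.91), 1.69-fold higher (adjusted p = 2.3e-06, limma). IGF1R ranked 1098 of all 19775 genes by size of rise. Only 1 of the 5 IGF1R probe sets was called, although 4 of the 5 had an adjusted p under 0.05 over probe sets and did not overlap between groups.

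The other probe sets of IGF1R were smaller in effect. Probe set 203628_at read 10.18, 9.76 and 10.35 in DTPs, against 9.41, 9.69 and 9.65 in parental cells (log2 fold change 0.51 ± 0.13). Probe set 203627_at read 10.41, 10.12 and 10.43 in DTPs, against 9.77, 10.05 and 9.91 in parental cells (0.41 ± 0.10). In both, DTP replicate 2 stood only just above the highest parental array. Probe set 243358_at read 8.86, 8.77 and 8.78 in DTPs, against 8.32, 8.33 and 8.27 in parental cells (0.50 ± 0.07). Probe set 208441_at, below the median of all probe sets in both groups, read 6.50, 6.39 and 6.25 in DTPs, against 6.48, 6.39 and 6.43 in parental cells (-0.05 ± 0.08). It lay below the others by a difference of -0.60 (adjusted p = 2.0e-04 by diffSplice, 0.0028 within arrays), and 225330_at lay above them by 0.41 (0.0075 and 0.0036, limma). The mean over the 5 probe sets was 0.42, which did not reach the fold minimum.

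INSR, the receptor for insulin, which also forms hybrids with IGF1R, read 8.99, 9.02 and 8.77 in DTPs by 213792_s_at, against 8.54, 8.81 and 8.71 in parental cells. DTP replicate 3 lay below parental replicate 2, so the groups overlapped. The log2 fold change was 0.24 ± 0.09 (SE, 95% interval 0.05 to 0.43), 1.18-fold. Its adjusted p was 0.045 over genes and 0.062 over probe sets (limma). None of its 5 probe sets was called. The log2 fold change was 0.14 for 226212_s_at, 0.17 for 226216_at and 0.13 for 226450_at. Probe set 207851_s_at, below the median of all probe sets in both groups, read 6.53, 6.70 and 6.31 in DTPs, against 6.74, 6.72 and 6.96 in parental cells (-0.29 ± 0.10). It differed from the others by -0.47 (adjusted p = 0.0023 by diffSplice, 0.0039 within arrays, limma). Alone among the INSR probe sets, 207851_s_at had an adjusted p under 0.05 over probe sets (0.044, limma) and groups that did not overlap.

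Both receptor substrates were called lower. IRS1 read 8.74, 8.83 and 9.03 in DTPs by 204686_at, against 9.91, 9.65 and 9.61 in parental cells. The highest DTP array was DTP replicate 3, and it was still below the lowest parental array. For IRS1 the log2 fold change was -0.86 ± 0.10 (SE, 95% interval -1.07 to -0.65), 1.81-fold lower (adjusted p = 1.1e-05, limma). By size of fall IRS1 ranked 582 of all 19775 genes. Of the other probe sets, 242979_at was also called lower, reading 6.60, 6.58 and 6.80 in DTPs, against 7.49, 7.32 and 7.28 in parental cells (-0.70 ± 0.09). Probe set 238933_at was not, reading 7.74, 7.75 and 7.78 in DTPs, against 7.67, 7.74 and 7.80 in parental cells (0.02 ± 0.07). This last probe set lay above the others by 0.80 (adjusted p = 5.2e-06 by diffSplice, 4.5e-04 within arrays), and 204686_at lay below them by a difference of -0.52 (8.9e-04 and 0.0021, limma). The mean over the 3 probe sets was -0.51, under the fold minimum.

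IRS2, the substrate that FOXO factors can activate, read 12.34, 12.31 and 12.45 in DTPs by 209185_s_at, against 13.09, 13.08 and 13.16 in parental cells. The spread within each group was small beside the gap between them. For IRS2 the log2 fold change was -0.75 ± 0.07 (SE, 95% interval -0.89 to -0.60), 1.68-fold lower (adjusted p = 1.7e-06, limma). By size of fall IRS2 ranked 769 of all 19775 genes. The other probe set, 209184_s_at, was called lower too, reading 10.79, 10.85 and 10.80 in DTPs, against 11.55, 11.78 and 11.78 in parental cells (-0.89 ± 0.08). Neither test found a difference between the 2 IRS2 probe sets.

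**Figure D3:**
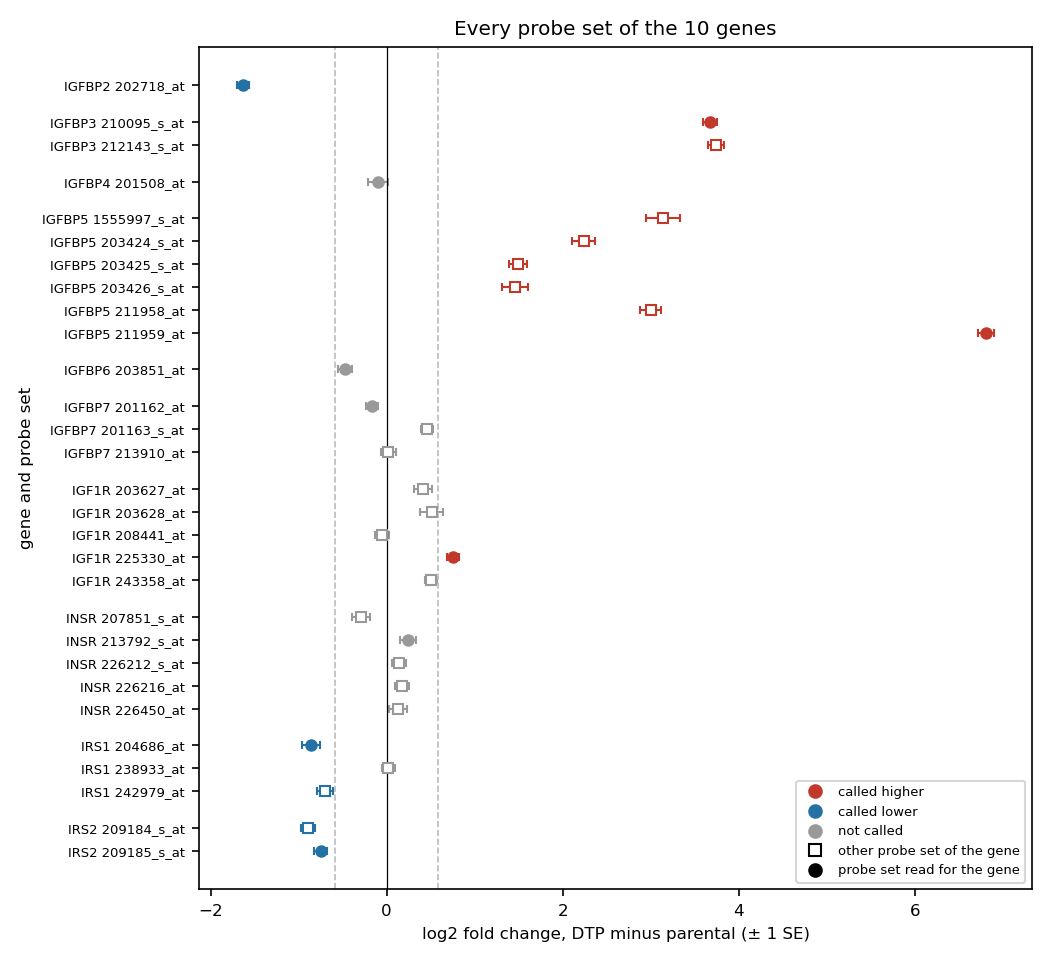
Log2 fold change, DTP minus parental (x axis, ± 1 SE), of all 29 probe sets, grouped by gene down the page, with filled circles for the probe set read for a gene and open squares for the others. Dashed lines mark the 1.5-fold minimum. All probe sets of IGFBP5, IGFBP3 and IRS2 were called in a single direction, whereas 1 of 5 was called for IGF1R and 2 of 3 for IRS1.

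Over the 29 probe sets, 9 were called higher, against 7.56% of all probe sets, 5 were called lower, against 4.93%, and 15 were not called. The 9 called higher were the 6 of IGFBP5, the 2 of IGFBP3 and 1 of IGF1R. The groups did not overlap in 21 of the 29, against 49.9% of all probe sets. Among the 26 probe sets of genes that had more than 1, 11 differed from the others of their gene by diffSplice, where 29.2% of the 31839 tested over the whole array did. By the test within arrays 12 did, including those 11, against 30.2% over the whole array. DTP replicate 3 was the lowest DTP array in 14 of the 29 probe sets, DTP replicate 2 the highest in 13, and parental replicate 3 the highest parental array in 13.

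The other genes of the pathway were counted in 4 lists. Of 19 ligands, carriers, binding protein proteases and IGF2 mRNA binding proteins, 18 were measured, IGF2 being read only by 3 probe sets shared with another symbol. In DTPs 2 were called higher, 3 lower and 13 neither (27.8% called, against 14.2% of all genes, median log2 fold change -0.06). The stanniocalcins, secreted inhibitors of pappalysins, split. STC1 rose, with values of 8.10, 8.42 and 8.33 in DTPs, against 7.25, 7.08 and 7.04 in parental cells (log2 fold change 1.16 ± 0.09, adjusted p = 3.4e-07, limma). STC2 fell, with values of 10.93, 10.78 and 11.12 in DTPs, against 12.32, 12.63 and 12.46 in parental cells (-1.53 ± 0.10, adjusted p = 6.6e-08, limma). All 3 probe sets of STC1 and both of STC2 were called in these directions.

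ADAM12, a metalloproteinase that can cut IGFBP3 and IGFBP5, was called higher, with a log2 fold change of 0.75 ± 0.10 (SE) 3 of its 5 probe sets called and a mean over them of 0.53, under the fold minimum. IGF2BP2, which binds IGF2 and other mRNAs, was called lower (-1.08 ± 0.07, both probe sets). PAPPA, the gene of pappalysin 1, read 8.47, 8.30 and 8.82 in DTPs, against 8.05, 8.15 and 7.65 in parental cells, and was not called (0.58 ± 0.14, adjusted p = 0.0042, limma). The mean over its 11 probe sets was only 0.11. IGF2R, the clearance receptor of IGF2, read 11.73, 11.65 and 11.64 in DTPs, against 11.11, 11.18 and 11.14 in parental cells, and was also under the fold minimum (0.53 ± 0.07). IGF1 itself was not called (-0.09 ± 0.07, adjusted p = 0.27, limma). PAPPA, IGF2R, IGF1 and IGFBP1 were named after their values had been seen.

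Of 28 adaptors, phosphatases and other regulators that act at the receptors, 27 were measured. Of these 5 were called higher, 3 lower and 19 neither (29.6% called, against 14.2% of all genes, median log2 fold change 0.01). GRB10, an adaptor that binds IGF1R and INSR and inhibits their signal, fell. It read 10.16, 10.36 and 10.54 in DTPs, against 12.11, 12.10 and 12.13 in parental cells (-1.76 ± 0.09, adjusted p = 6.1e-09, limma), and 3 of its 4 probe sets were called lower. GRB7, an adaptor of the same family, was also lower (-0.99 ± 0.11). DOK4, a docking protein phosphorylated by the insulin receptor, and SH2B2, an adaptor of the same receptor, were higher. DOK4 read 8.65, 8.42 and 8.58 in DTPs, against 7.49, 7.35 and 7.60 in parental cells (1.07 ± 0.08), and SH2B2 had a log2 fold change of 0.95 ± 0.08. The other genes called in this list, named after their values had been seen, were SOCS2 (0.95), CAV1 (0.88) and SH2B1 (0.62), which were higher, and PTPN2 (-0.81), which was lower. Of these PTPN2 (2 of 7 probe sets called, mean -0.27) and SH2B1 (1 of 2, mean 0.47) were under the fold minimum with the mean of their probe sets, and SH2B1 also without parental replicate 3 (0.58).

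Of 30 genes of PI3-kinase, AKT and mTOR signalling, 26 were measured. In DTPs 4 were called higher, 5 lower and 17 neither (34.6% called, against 14.2% of all genes, median log2 fold change 0.01). EIF4EBP1, the translation repressor that mTOR inactivates, had the largest change. It read 10.23, 10.26 and 10.46 in DTPs, against 12.21, 12.32 and 12.31 in parental cells (-1.96 ± 0.08, adjusted p = 6.5e-10, limma). DEPTOR, an inhibitor of mTOR, was lower (-1.20 ± 0.08, 1 of 2 probe sets called). INPP4B, a phosphatase that removes a PI3-kinase product, was higher by its probe set of highest mean (1.24 ± 0.07), with 2 of 4 probe sets called. The regulatory subunits of PI3-kinase split. PIK3R3 was lower (-1.07 ± 0.08), and PIK3R1 read 8.05, 7.76 and 8.10 in DTPs, against 7.11, 7.06 and 7.04 in parental cells (0.90 ± 0.09). Also called, and like PIK3R1 named after their values had been seen, were PIK3CD (0.66) and PIK3IP1 (0.67), which were higher, and RICTOR (-0.82) and RPS6KB1 (-0.63), which were lower. With the mean of their probe sets PIK3CD (1 of 2 called, mean 0.41) and RPS6KB1 (1 of 3, mean -0.53) were under the fold minimum, as was INPP4B (0.56). Centring on ribosomal protein genes (-0.55) or spike-ins (-0.49) also ended the call of RPS6KB1.

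All 21 FOXO factors and genes that FOXO factors can regulate were measured. Of these 7 were called higher, 3 lower and 11 neither (47.6% called, against 14.2% of all genes, median log2 fold change 0.11). FBXO32, a muscle-atrophy ubiquitin ligase subunit, rose in DTPs, with values of 10.99, 10.91 and 11.16, against 9.58, 9.50 and 9.62 in parental cells (1.46 ± 0.08, adjusted p = 1.2e-08, limma), and 6 of its 7 probe sets were called. KLF4, a zinc finger transcription factor, fell, with values of 9.58, 9.57 and 9.92 in DTPs, against 12.67, 12.59 and 12.59 in parental cells (-2.93 ± 0.09, adjusted p = 9.2e-11, limma). KLF2, of the same family (-1.08 ± 0.08, 1 of 2 probe sets called), and BCL6, a transcriptional repressor (-1.06 ± 0.07), were also lower. FOXO1 read 8.82, 8.99 and 8.95 in DTPs, against 8.22, 8.05 and 7.78 in parental cells (0.91 ± 0.10). The others called higher, named like FOXO1 after their values had been seen, were CITED2 (0.95), CCNG2 (0.83), BCL2L11 (0.73), SESN1 (0.66) and FOXO6 (0.59). With the mean of their probe sets FOXO1 (2 of 3 called, mean 0.50), CITED2 (2 of 3, mean 0.57), BCL2L11 (2 of 7, mean 0.48) and KLF2 (-0.55) were under the fold minimum. The call of FOXO6 was lost without DTP replicate 2 (0.53), DTP replicate 3 (0.58) or parental replicate 2 (0.54). The list thus held members that moved in both directions.

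**Figure D4:**
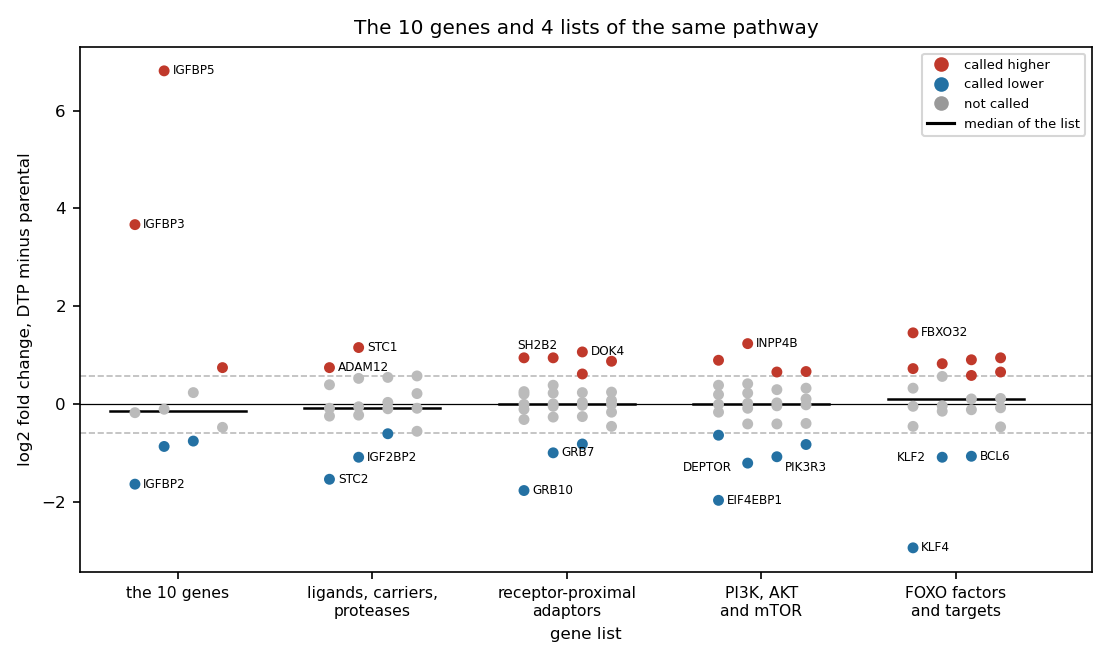
Log2 fold change, DTP minus parental (y axis), of the 10 genes and of the measured genes of 4 lists of the same pathway, a point per gene, red where called higher, blue where called lower and grey where not called, with black bars at the list medians and dashed lines at the 1.5-fold minimum. List medians lay between -0.14 and 0.11, while IGFBP5 (6.81) and IGFBP3 (3.67) stood above every gene of the 4 lists.

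Array medians lay between 7.272 and 7.32, as quantile normalization makes them nearly equal. Pearson's r over probe sets was 0.9968 to 0.9979 within groups and 0.9701 to 0.9754 between them, and the 3′ minus 5′ difference of control probe sets differed between groups by -0.02 for GAPDH and -0.11 for ACTB (p = 0.10 each, two-sided exact permutation test, the smallest p that 3 against 3 arrays allow). Of 12 epithelial markers 1 was higher, 1 lower and 10 neither, and their mean level was 11.57 to 11.59 in DTPs and 11.52 in parental cells, although the lung lineage factor NKX2-1 stayed below the median of all probe sets in both. Of 12 markers of fibroblasts, cells known to secrete IGFBP3 and IGFBP5, COL1A1 (2.67, 3 of 5 probe sets) and MFAP5 (0.98, 1 of 3) were called higher and 10 were not called (median log2 fold change -0.03). Their mean level was 7.03 to 7.07 in DTPs, against 6.78 to 6.83 in parental cells. Their summed level on the log2 scale was 11.69 to 11.89 in DTPs, against 10.74 to 10.82 in parental cells. Without COL1A1 it was 10.39 to 10.44 in DTPs, against 10.43 to 10.46 in parental cells. Leaving out COL1A1, the marker with the largest rise, was not a planned check, and it lowers the DTP sum by its choice of marker. Of the 12, 7 were below the median of all probe sets in both groups, DCN, LUM and MFAP5 among them. Of 8 endothelial markers 1 was lower (PECAM1, -0.69, with 4 of 5 probe sets called lower and a mean over the 5 of -1.29). The summed level of the 8 was 10.55 to 10.75 in DTPs, against 10.92 to 11.06 in parental cells. The shares called were 16.7% of the epithelial, 16.7% of the fibroblast and 12.5% of the endothelial markers, against 14.2% of all genes. None of the 5 blood cell markers measured was called (summed level 9.53 to 9.68 in DTPs, against 9.69 to 9.73 in parental cells). The part of any of these in the members' values was not tested.

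Centring the arrays on hybridization spike-ins moved the median log2 fold change of all genes to 0.10 and the portion higher among called genes to 74.2%, and centring on ribosomal protein genes moved them to 0.04 and 67.6%, against -0.05 and 56.9% as deposited. The 6 members called kept their calls under both. The direction of IGFBP4 did not (0.04 with spike-ins). Averaging the probe sets of each gene ended the calls of IGF1R and IRS1 and brought the log2 fold change of IGFBP5 to 3.02. Leaving out any array changed none of the 10 members' calls.

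**Figure D5:**
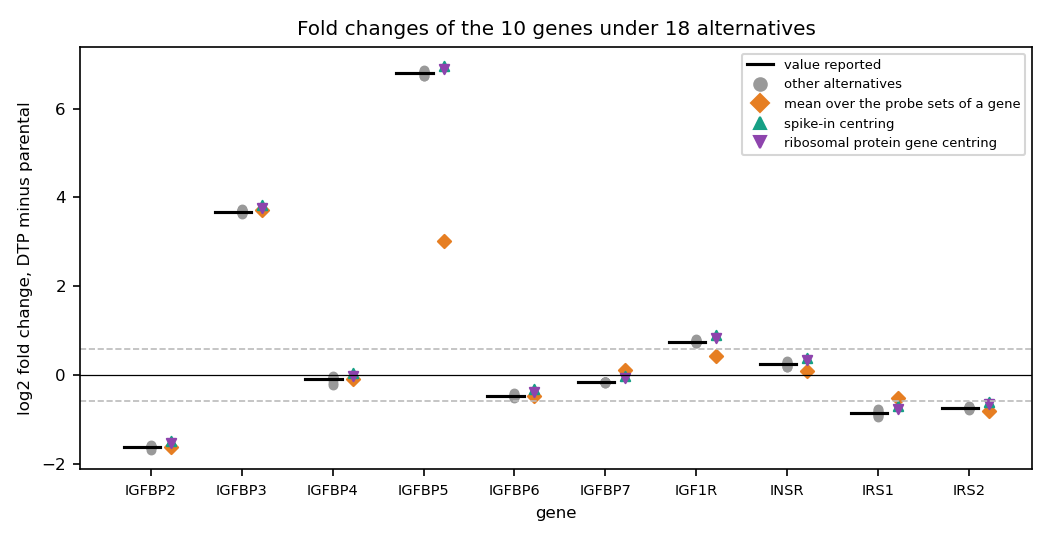
Log2 fold change, DTP minus parental (y axis), of each of the 10 genes as reported (black bar) and under 18 alternatives (grey points, with orange diamonds for the mean over the probe sets of a gene, green triangles for spike-in centring and purple triangles for ribosomal protein gene centring), with dashed lines at the 1.5-fold minimum. IGFBP5 moved most, to 3.02 with the mean of its probe sets, and IGF1R (0.42) and IRS1 (-0.51) then fell inside the dashed lines.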

How the data were processed

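Total RNA of 3 DTP and 3 parental samples was hybridised to Affymetrix Human Genome U133 Plus 2.0 arrays after 3′-primed labelling. The deposited log2 values were made by the authors with RMA in the affy package, with quantile normalization (version not given in the sources used here). This summary gives no detection call, so dim probe sets have values and their changes are understated, and a change in total mRNA per cell is not visible. The number of arrays limits the precision.

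Of 54675 probe sets, 62 were controls, and 41091 had 1 gene symbol, 1801 several and 11721 none. A gene was read by its probe set with the highest mean over the 6 arrays, among _x_at probe sets only for the 419 genes with no other. The groups were tested by limma 3.58.1 (R 4.3.3, functions lmFit, eBayes and diffSplice) at the thresholds of the study's methods. The tests were checked on simulated data, where diffSplice made too many false calls, and a test within arrays was added. Over probe sets, p-values were adjusted over all 54613. The genes named were all members and, in each list, up to 4 called genes with the largest change. The members and lists were chosen with earlier results of these data known. The alternatives were the replicate number as a block, each array left out, other centring and normalization, other rules for probe sets, variances and thresholds, and the methods' t-test, which the study names for its other assays. The gene symbols came from the platform annotation and the promoters from RefSeq.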

Additional observations from a re-analysis of the deposited data

How the results depend on the processing

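Each value was recomputed under up to 18 alternatives, and those of the disagreement among probe sets and of the 3′ minus 5′ controls were chosen after seeing the data. IGFBP2, IGFBP3 and IGFBP5 kept their call and direction under all 18. With a fold over 2 the members called were 3 by gene and 9 by probe set, and the calls of IGF1R (0.75), IRS1 (-0.86) and IRS2 (-0.75) were lost. Of all 19775 genes, 679 were then called higher and 431 lower, and the share of all probe sets was not counted. With no fold minimum IGFBP6 (-0.47), IGFBP7 (-0.17) and INSR (0.24) were called as well, where 4043 of all genes were called higher and 4754 lower. With the mean over the probe sets of a gene IGF1R (0.42) and IRS1 (-0.51) were lost and IGFBP7 turned to 0.10. Of all genes, 1273 were called higher and 938 lower with that mean. With spike-in centring IGFBP4 turned to 0.04. The adjusted p of INSR reached 0.34 and that of IGFBP7 0.92 under some alternative. Of the ligands and carriers 3 were called with the mean over probe sets, 3 with a fold over 2 and 11 with no fold minimum. For the receptor-proximal list these counts were 2 with a fold over 2 and 18 with no minimum, for the PI3-kinase list 4 and 18, and for the FOXO list 6 with the mean and 4 with a fold over 2. With dim probe sets left out, 6 of 17 member probe sets differed from the others of their gene, and the share over the whole array was not counted there. Leaving out each array in turn gave 6 to 6 members by gene, 14 to 15 by probe set, 4 to 7 ligands and carriers and 8 to 9 receptor-proximal genes. It also gave 9 to 9 of the PI3-kinase list, 9 to 11 of the FOXO list and 11 to 12 disagreeing probe sets. Over all genes these settings called 1536 to 1653 higher and 1141 to 1357 lower. The 16 named genes of the lists gave 281 of 287 values with the same call, 6 that lost it (ADAM12, INPP4B and KLF2 with the mean over probe sets, and ADAM12, GRB7 and SH2B2 with a fold over 2) and 0 that changed direction. With the replicate number as a block 6 members were called by gene and 14 by probe set, and the block changed no call of a member. Same-numbered arrays correlated in their deviations from the group means at -0.12, 0.02 and -0.06, and differently numbered arrays at -0.07 to 0.15. With 3 arrays per group these correlations cannot decide whether the numbers pair the samples.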
